A study of Mus musculus with 16 samples.

Results

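Open chromatin of the lung was compared with that of the kidney in male C57BL/6 mice. The comparison rests on 4 of the 16 ATAC-seq libraries of the study, which are the fed lung, the fasting lung, the fed kidney and the fasting kidney. ATAC-seq uses the transposase Tn5 to insert sequencing adapters into DNA that is not wrapped in nucleosomes, so that a peak of insertions marks an open region. The fed mice had free access to chow and the fasting mice had been without food for a day. Each library was made from tissue powder of several mice pooled per organ and state, the lung and kidney pools of a state coming from mice of the same group, and no genetic change or drug was involved. There is therefore 1 library for each tissue and state, and the spread between the fed and the fasting library of a tissue is the only replicate check. A difference in the number of nuclei of a cell type cannot be told apart from a difference in openness per nucleus in such tissue libraries.

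A region was counted where its deposited peak had a −log10 q of at least 2 (q of at most 0.01), which held for every peak of these 4 lists. The fed and fasting lung held 160424 and 157435 regions, and the fed and fasting kidney held 165716 and 168856. A region was called lung-specific where both lung libraries held it and no deposited peak of either kidney library overlapped it, and kidney-specific by the same rule with the tissues exchanged. By this rule 45025 of the 111962 regions open in both lung libraries were lung-specific (40.2%), and 57776 of the 126970 regions open in both kidney libraries were kidney-specific (45.5%). A further 55682 merged regions were present in all 4 libraries. The strength of a region is given as its rank, the percentile of its −log10 p within its own list, from just above 0 for the weakest to 100 for the strongest peak. The deposited lists were cut at nearly the same length, so a rank compares regions within a library and not the total openness of a tissue. The local background under the peaks, a measure of depth, was 8.92 and 7.14 tags in the fed and fasting lung against 4.67 and 4.64 in the kidney. Depth and tissue cannot be told apart with these libraries, and counts are therefore also given after thinning all 4 lists to the lowest of these backgrounds, called equal depth below. Only the background was matched by this. The thinned lists held 111225 and 117070 regions in the fed and fasting lung, and 164930 and 155007 in the kidney.

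The lung exchanges gas across a thin wall of alveolar type 1 cells, while alveolar type 2 cells secrete surfactant and a dense bed of capillaries lies beneath both. The kidney filters blood at the podocytes of the glomerulus and recovers solutes along the proximal tubule, the loop of Henle, the distal convoluted tubule and the collecting duct. The transcription factors Nkx2-1, Foxa1, Foxa2 and Gata6 direct the lung epithelium, whereas Hnf4a, Pax2 and Pax8 direct the tubule, and each family reads its own short DNA motif in open regions.

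Examples of specific regions are shown first, so that the DNA motifs counted below can be seen in place. Each is the strongest specific region that lay nearest a gene of that tissue's own marker lists, lay outside exons and held the motif, and 121 bases around its summit are printed on the plus strand of GRCm38 with the motif match in capitals. The kidney examples hold an HNF4 match at chr10:50981934-50982054 in an intron of Sim1, and an estrogen-related receptor (ESRR) match at chr1:118667710-118667830 in an intron of Tfcp2l1. The lung examples hold an ETS match at chr14:41131631-41131751, which is 91 bp from the start of the surfactant gene Sftpa1, a forkhead (FOX) match at chr16:10347723-10347843, which is intergenic and 33815 bp from the start of Emp2, and an NKX2 match at chr16:10300390-10300510 in an intron of Emp2.
HNF4, kidney, Sim1: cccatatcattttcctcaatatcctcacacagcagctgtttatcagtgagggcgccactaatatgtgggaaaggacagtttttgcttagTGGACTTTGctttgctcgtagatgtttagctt
ESRR, kidney, Tfcp2l1: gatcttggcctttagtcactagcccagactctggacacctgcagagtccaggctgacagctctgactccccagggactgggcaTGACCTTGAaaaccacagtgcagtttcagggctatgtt
ETS, lung, Sftpa1: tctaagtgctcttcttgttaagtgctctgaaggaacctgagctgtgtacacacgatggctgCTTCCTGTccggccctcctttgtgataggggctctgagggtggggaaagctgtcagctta
FOX, lung, near Emp2: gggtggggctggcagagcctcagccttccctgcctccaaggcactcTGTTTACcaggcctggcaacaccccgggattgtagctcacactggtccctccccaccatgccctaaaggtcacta
NKX2, lung, Emp2: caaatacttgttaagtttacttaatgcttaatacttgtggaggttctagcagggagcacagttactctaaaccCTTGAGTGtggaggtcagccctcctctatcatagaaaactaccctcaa
The region in Sim1 ranked 76.1 in the fed and 82.4 in the fasting kidney, and that at Sftpa1 ranked 83.9 and 90.9 in the fed and fasting lung. Neither of these, nor the NKX2 region of Emp2, lay in the regions of any of the other 6 tissues in both states, whereas the FOX region near Emp2 did so in liver, muscle, heart and both adipose tissues. A match is a description of the letters and does not show that a factor was bound.

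The specific regions of both tissues were mostly small and distal, but the strongest regions of the kidney were far more often its own. The median width was 330 bp in lung-specific and 296 bp in kidney-specific regions against 590 bp in regions present in all 4 libraries. A summit within 3000 bp of an annotated start was found in 24.5% of lung-specific, 24.6% of kidney-specific and 47.1% of the regions in all 4 libraries. The median distance to the nearest start was 9159 bp for lung-specific and 9071.5 bp for kidney-specific regions, against 3698 bp for the regions in all 4 libraries. The specific regions of both tissues were also lower in C and G, with 49.8% in lung and 48.3% in kidney against 53.7%. The median mean rank was 47.0 for lung-specific and 52.0 for kidney-specific regions, and 225 lung-specific regions (0.50%) but 2590 kidney-specific regions (4.48%) had a mean rank of at least 90.

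Read along the rank scale, the specific share of the regions open in both states of the lung declined from 71.1% in the weakest tier of ranks (0 to 10) to 1.49% in the strongest (90 to 100), that is 225 of 15098 regions. In the kidney the same share declined from 62.9% to 15.9%, or 2590 of 16261 regions. The tissues were alike in the middle of the scale, with 51.0% of lung and 50.4% of kidney regions specific between ranks 50 and 60. Above rank 60 the kidney share was the higher one, with 17.8% in lung and 37.8% in kidney between ranks 80 and 90. Taking instead the strongest 10% of these regions by mean −log10 p, 38 of 11197 lung regions (0.339%) and 1539 of 12697 kidney regions (12.1%) were specific. At equal depth the shares were 3 of 8225 (0.0365%) and 1585 of 12283 (12.9%), and among the 50000 strongest regions of each list they were 2 of 4090 (0.0489%) and 186 of 4329 (4.30%). The number of lung-specific regions itself fell to 27397 at equal depth, while that of kidney-specific regions was 61288. These counts follow from the rule and the lists, so no test was run on them. The kidney-specific regions also stood higher over background, which was itself lower in the kidney lists. The median fold enrichment of the specific regions was 3.30 and 3.41 in the fed and fasting lung, and 4.85 and 4.36 in the fed and fasting kidney. The part of the background in this difference was not tested.

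**Figure D1:**
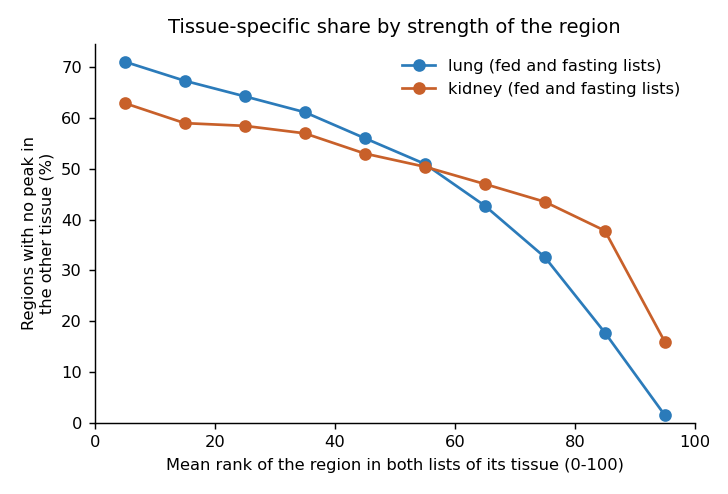
Share of regions open in both states of a tissue that had no peak in the other tissue (y axis, percent) against the tier of mean rank (x axis, percentile of −log10 p), for lung and kidney. In both tissues most weak regions were specific, and between ranks 90 and 100 the share was 1.49% in lung and 15.9% in kidney.

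The strongest lung-specific region lay at chr5:148509282-148510184 in an intron of Ubl3, with ranks of 94.3 and 96.0 in the fed and fasting lung. It was also open in both states of all 6 other tissues, since the rule sets the lung against the kidney alone. Among the next strongest was an intronic region of Gli3, a transcription factor of the Hedgehog pathway that patterns the lung, at chr13:15602515-15603360, with ranks of 93.9 and 95.1, and one in an intron of the forkhead gene Foxp4 at chr17:47889563-47890349. The other lung-specific regions among the strongest 5 lay at chr3:57637190-57638591 near Commd2 and chr12:100282182-100282992 near Ttc7b. The region near Commd2 was open in both states of the spleen too, and that near Ttc7b in liver, muscle, spleen and heart. Those of Gli3 and Foxp4 were open in both states of no other tissue. The strongest kidney-specific region overlapped a coding exon of Pde4dip at chr3:97756412-97757395, with ranks of 99.7 and 99.6 in the fed and fasting kidney. An intergenic region 36326 bp from the start of Pkhd1, the gene mutated in recessive polycystic kidney disease, lay at chr1:20653591-20654809 and ranked 99.1 and 99.3. Intronic regions of Ksr2 (chr5:117764363-117765002) and Dennd1a (chr2:38040680-38041410) and an intergenic region 206368 bp from the start of Adgrl2 (chr3:149196481-149197180) completed the strongest kidney-specific regions. Each of these kidney-specific regions was also open in both states of another tissue. These were liver and muscle for Pde4dip, liver for Pkhd1 and Adgrl2, muscle for Ksr2 and white adipose tissue for Dennd1a.

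The regions just outside the rule were weaker where 1 state lacked them. Regions found in the fed lung alone with no kidney peak numbered 32918, with a median rank of 21.5, and those in the fasting lung alone numbered 28097, with a median rank of 20.3. In the kidney there were 22963 in the fed library alone and 23082 in the fasting library alone, with median ranks of 17.6 and 17.0. A further 10009 lung regions and 9923 kidney regions, open in both states, were overlapped in just 1 library of the other tissue, and these had median ranks of 53.5 and 48.6.

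As whole lists, lung and kidney were neither unusually alike nor unusually different. The Jaccard index, the bases shared by 2 sets divided by the bases in either, averaged 0.318 over the 4 lung and kidney pairs (0.310 to 0.329). This was place 11 of the 28 pairs of tissues, and in an exact permutation test over those pairs the one-sided p was 0.393, where 0.0357 is the smallest possible. The fed and fasting libraries were closer to each other in the kidney (0.685) and the lung (0.639) than in any of the other 6 tissues, of which muscle came next at 0.604. The 2 organs were chosen for this closeness, so their place in that order is not a result. White adipose tissue was the closest tissue to the lung at 0.358, whereas its index with the kidney was 0.315.

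Of the 6 other tissues, the spleen overlapped the largest share of lung-specific regions and the liver the largest share of kidney-specific regions. On average over states, 36.5% of lung-specific and 10.05% of kidney-specific regions overlapped the regions of the spleen, an organ rich in lymphocytes. The fed and fasting spleen gave 35.9% and 37.0% for the lung against 9.47% and 10.6% for the kidney. The liver gave the opposite order, with 18.0% of lung-specific and 26.4% of kidney-specific regions, and the fed and fasting liver held 25.1% and 27.7% of the kidney-specific ones. White adipose tissue, muscle, heart and brown adipose tissue held 29.8%, 27.0%, 23.9% and 20.8% of the lung-specific regions, and 17.4%, 13.5%, 8.35% and 15.2% of the kidney-specific regions. The difference was thus toward the lung in 5 of the 6 tissues, with a mean of 10.8 percentage points. Without the fed lung it was 3.81, without the fasting lung 4.84 and with the fasting libraries alone 6.43. That mean did not pass an exact two-sided sign-flip permutation test over tissues (p = 0.0938, where 0.03125 is the smallest possible).

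Counted in both states, 13020 lung-specific regions (28.9%) but 2542 kidney-specific regions (4.40%) were also open in the spleen. In the liver the counts were 4744 (10.5%) and 11693 (20.2%). No peak in any other tissue overlapped 8992 lung-specific regions (19.97%) and 20658 kidney-specific regions (35.8%), so the kidney set held more regions that were unique among the 8 tissues.

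**Figure D2:**
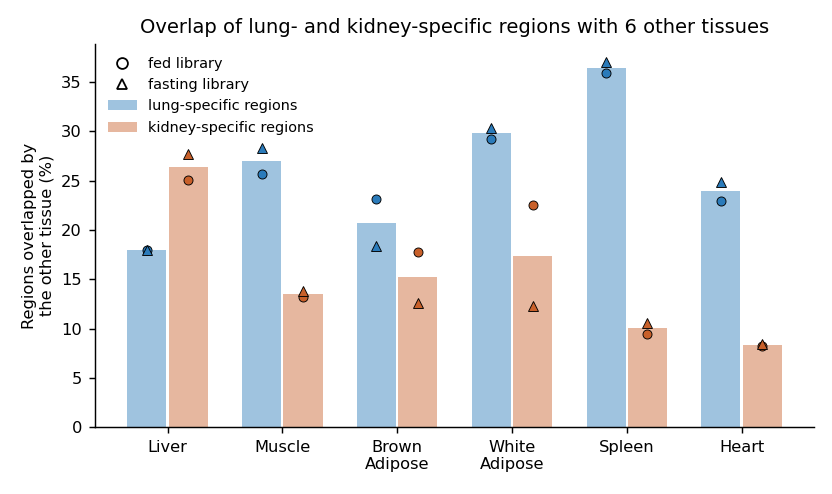
Percent of lung-specific and kidney-specific regions (y axis) that overlapped the regions of each of the 6 other tissues (x axis), with 1 point per state and bars at the mean of both states. The spleen held 36.5% of lung-specific against 10.05% of kidney-specific regions, and the liver 18.0% against 26.4%.

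Motifs were counted within 100 bp of the summit on both strands, and the HNF4 motif stood out in the kidney. The HNF4 letters CAAAGTCCA were found in 1606 kidney-specific regions (2.78%) and in 0.162% of lung-specific regions. HNF4 factors control genes of the proximal tubule and of hepatocytes. The ESRR letters TCAAGGTCA, read by a nuclear receptor family that controls mitochondrial genes, were found in 0.884% of kidney-specific and 0.320% of lung-specific regions. For comparison, the same letters were present in 0.475% (HNF4) and 0.423% (ESRR) of the 32851 mouse RefSeq promoter sequences, which are longer than the window searched here.

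The lung-specific regions were richer in motifs of ETS, forkhead, NKX2, GATA and RUNX factors. The ETS letters ACAGGAAG were found in 6.46% of lung-specific regions (95% exact Clopper-Pearson interval 6.23 to 6.69) and 2.02% of kidney-specific regions (1.91 to 2.14). The forkhead letters TGTTTAC were found in 6.34% and 2.87%, the NKX2 letters CACTTGAG or CACTCAAG in 2.87% and 1.69%, the GATA letters AGATAAG in 3.36% and 1.59%, and the RUNX letters TGTGGTT in 7.05% and 4.49%. Of the RefSeq promoters, 3.58% held the ETS, 3.65% the forkhead and 2.30% the NKX2 letters. ETS and RUNX factors act in blood cells and ETS factors also in endothelium, whereas forkhead and NKX2 factors act in the lung epithelium and mesenchyme. The AP-1 letters TGANTCA (10.4% and 7.48%) and the C/EBP letters TTGCNNAA (11.5% and 8.92%) differed less. The TEAD letters GGAATGT (4.54% and 4.40%) and the GRHL letters AACCGGTT (0.0822% and 0.0779%) were nearly level. The CTCF letters AGGGGGC were most frequent in the regions present in all 4 libraries, at 10.5% against 2.97% of lung-specific and 2.18% of kidney-specific regions.

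Over all regions of a library the HNF4 share was 0.261% and 0.272% in the fed and fasting lung against 1.46% and 1.45% in the kidney. The ETS share was 5.22% and 4.36% in the fed and fasting lung and 2.49% and 2.66% in the kidney, and the forkhead share was 4.26% and 4.41% against 2.89% and 2.97%. For all of these the gap between tissues was larger than that between states, and the libraries of the 2 tissues did not overlap. With 2 libraries against 2 an exact two-sided permutation test cannot go below 0.333, which was the p of the motifs named here (0.394 after Benjamini-Hochberg adjustment over the 13 motifs searched), so none could pass. In the same exact permutation test GRHL (p = 0.667) and TEAD (p = 1) were the exceptions. Set among all 8 tissues by the mean of both states, the kidney ranked first for HNF4 (1.45%), with the liver next at 0.861%. It also ranked first for ESRR at 0.682%, where brown adipose tissue followed at 0.681%. The libraries of these 2 tissues overlapped, at 0.670% and 0.694% in the fed and fasting kidney and 0.720% and 0.642% in brown adipose tissue. The kidney ranked last for ETS and GATA. The lung ranked first for NKX2 at 2.17%, forkhead at 4.33%, ETS at 4.79% and RUNX at 5.58%, and the spleen followed at 4.42% for ETS and 5.45% for RUNX. Lung and spleen libraries overlapped for ETS and RUNX. The fed and fasting spleen held 4.57% and 4.26% for ETS and 5.65% and 5.26% for RUNX. The fasting lung held 4.36% and 5.20%.

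**Figure D3:**
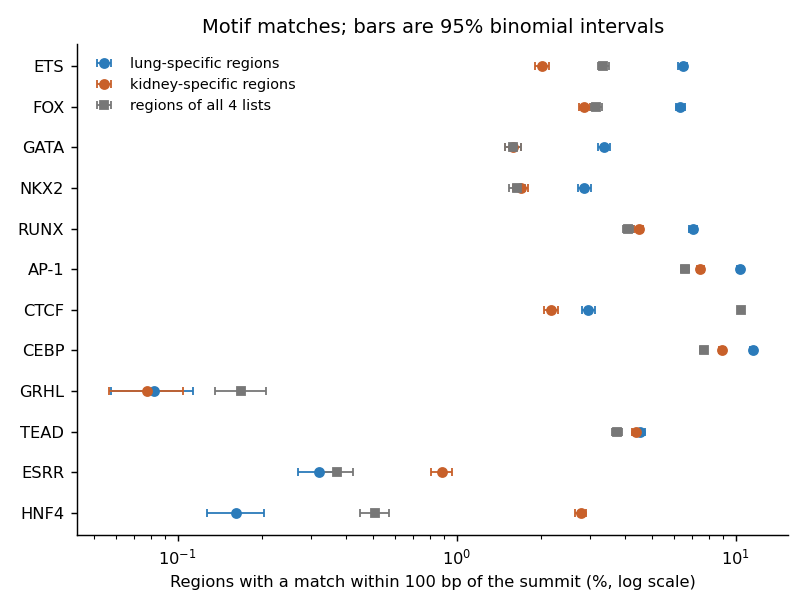
Percent of regions with a motif match within 100 bp of the summit (x axis, log scale) for each motif (y axis), with 95% binomial intervals, in lung-specific regions, kidney-specific regions and regions present in all 4 libraries. HNF4 stands at 2.78% in kidney-specific against 0.162% in lung-specific regions, and ETS at 2.02% against 6.46%.

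The motifs differed between regions shared with another tissue and regions that were not. Among the 13020 lung-specific regions also open in both spleen libraries, 11.1% held the ETS and 10.8% the RUNX letters, but 3.96% the forkhead and 1.91% the NKX2 letters. Among the 24689 lung-specific regions with no spleen peak (54.8%), the ETS and RUNX shares were 4.31% and 5.39%, and the forkhead and NKX2 shares were 7.80% and 3.30%. The TEAD share was 2.11% in the former and 5.83% in the latter. Lung-specific regions open in both libraries of white adipose tissue or of the heart had equally low forkhead (4.13% each) and NKX2 shares (2.04% and 2.01%), so a low share of these motifs went with sharing in each of these 3 tissues. Regions shared with the spleen also had a higher median rank than those with no spleen peak (53.6 against 43.8). They lay at promoters more often (28.4% against 22.2%), and white adipose tissue and heart gave the same order for rank and promoter share. The ETS share was 6.21% and 6.91% in the regions shared with white adipose tissue and with the heart, below that of regions shared with the spleen. In the 8992 lung-specific regions without a peak in any other tissue, the forkhead share was 9.03% and the NKX2 share was 4.18%. Kidney-specific regions also open in both liver libraries held the HNF4 letters in 4.48%. Those without a liver peak held them in 2.29%, and those without a peak in any other tissue in 3.01%. Of these 3 sets the HNF4 share was thus highest where the liver was open too. Regions of that set also had a higher median rank (66.7 against 48.1 and 47.5). They lay at promoters more often (28.8% against 22.8% and 21.0%).

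The tissue labels were checked against Sftpc, the surfactant protein C gene of alveolar type 2 cells, and Umod, which encodes uromodulin of the loop of Henle. The promoter rank of a gene is the highest rank of a region with its summit within 3000 bp of one of its annotated starts, and 0 where there is none. The Umod promoter had no region in either lung library and ranked 92.0 and 91.6 in the fed and fasting kidney, from a kidney-specific region at chr7:119479009-119479774 with its summit 234 bp from a start. Among the other 6 tissues, fasting brown adipose tissue alone had a Umod promoter rank above 0, at 25.0. The Sftpc promoter rank did not separate the tissues, at 85.5 and 83.9 in the fed and fasting lung and 83.7 and 82.2 in the kidney, and all 8 tissues had a region in that window. The region at the Sftpc start itself did. It lay at chr14:70523910-70524613 with its summit 26 bp from the start, it ranked 69.9 and 73.5 in the fed and fasting lung, and it was lung-specific and open in both states of no other tissue. A second lung-specific region at chr14:70526679-70527202 ranked 40.1 and 37.5. The window of 3000 bp can therefore take in regions of neighbouring genes, and a rank that is high in both tissues does not show that the gene's own start was open in both.

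A promoter was called higher in a tissue where the lower of its 2 ranks there exceeded the higher rank of the other tissue by at least 20 points. Of 21938 protein-coding genes, 1198 (5.46%) were called higher in the lung and 1052 (4.8%) in the kidney. The median difference of all genes was 0, and their median ranks were 91.6 and 91.3 in the fed and fasting lung and 88.6 and 89.0 in the kidney. At equal depth the calls were 830 (3.78%) and 1326 (6.04%). A promoter was called lung-only or kidney-only where both libraries of a tissue had a region in the window and no deposited peak of the other tissue touched it, which held for 592 genes (2.7%) and 679 genes (3.1%). Within 1000 bp of a start there were 638 lung-only and 613 kidney-only promoters. With that window 1239 promoters (5.65%) were called higher in the lung and 928 (4.23%) in the kidney. Of the calls with the wider window 977 and 756 were kept. The marker lists below are read against these shares. Counts of specific regions nearest the genes of a list are read against 40187 lung-specific and 49367 kidney-specific regions for all genes. Of all genes 25.4% had more lung-specific and 36.1% more kidney-specific regions. These counts were not adjusted for the length of a gene.

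In the alveolar type 2 list 3 of 10 promoters were called higher in the lung and 0 in the kidney, and the median difference was 5.52 rank points. Within 1000 bp of a start 5 of 10 were called and the median difference was 29.3. Sftpa1 and Sftpd, which encode the surfactant collectins, ranked 83.9 and 82.7 in the fed lung and 90.9 and 86.0 in the fasting lung, and both were at 0 in the kidney libraries. Lamp3, a lamellar body protein, ranked 38.7 and 64.2 in the lung and 0 in both kidney libraries. Sftpb, by contrast, ranked 86.5 and 90.2 in the lung and 89.5 and 88.8 in the kidney, so the libraries overlapped, but within 1000 bp its kidney ranks were 0. Regions nearest the 10 genes were lung-specific in 81 cases and kidney-specific in 31.

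Of the alveolar type 1 genes, 2 of 10 were called higher in the lung and 1 in the kidney. Aqp5, a water channel, ranked 85.0 and 87.9 in the lung and 0 in both kidney libraries. Ager, the receptor for advanced glycation end products, ranked 77.2 and 86.9 in the lung and 0 in the kidney. Pdpn, which encodes podoplanin and is also used by podocytes, went the other way with 30.9 and 10.6 in the lung and 73.8 and 74.2 in the kidney. Within 1000 bp of a start its kidney ranks were 19.8 and 28.2, and the call ended. The median difference was 3.57 by −log10 p but −3.13 when ranked by fold enrichment, so the list as a whole had no stable direction. All 10 genes had more lung-specific than kidney-specific regions nearest to them, 86 against 16 in sum, where 25.4% of all genes had more lung-specific regions.

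The airway list had 2 of 10 promoters called higher in the lung. Scgb1a1, the secretoglobin of club cells, ranked 49.7 and 63.2 in the lung and 0 in the kidney. Scgb3a1 ranked 60.8 and 76.9 in the lung against 26.3 and 17.0 in the kidney, but within 1000 bp of a start it was at 10.8 and 0 in the lung and its call ended. The gap of Cyp2f2 fell just short of 20 points, with 90.5 and 93.1 in the lung and 24.9 and 71.1 in the kidney. The median difference of 11.1 points fell to 2.11 within 1000 bp. Bpifa1 of the airway epithelium and Dnah5 of motile cilia were at 0 in all 4 libraries.

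The endothelial list had the most calls of the lung lists, with 8 of 10 promoters called higher in the lung, 0 in the kidney, and a median difference of 37.6 points. At equal depth 6 of 10 were called. Pecam1 (CD31) ranked 88.7 and 80.9 in the lung and 4.50 and 10.5 in the kidney. Cdh5, the cadherin of endothelial junctions, ranked 86.7 and 91.6 against 42.9 and 45.6. Calcrl, the adrenomedullin receptor, ranked 95.6 and 93.6 against 51.6 and 60.8, and the claudin Cldn5 ranked 88.0 and 92.8 against 52.6 and 56.7. Car4 and Ednrb were not called. Car4 ranked 69.9 and 78.8 in the lung and 82.5 and 78.5 in the kidney, and Ednrb 55.9 and 62.4 against 69.0 and 59.4. Car4 was nearest to 7 kidney-specific and 2 lung-specific regions, and Ednrb to 8 and 1. The median of the list in the kidney was 51.6 and 53.5, none of its promoters was lung-only, and Tek was at 0 in the fasting kidney. Averaged over states, the list median was 92.6 in the heart, above the 86.3 of the lung. That of the kidney, 52.6, was the lowest of the 8 tissues.

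Among the mesenchymal genes 3 of 10 were called higher in the lung. They were Wnt2 (67.8 and 69.1 in the lung, 0 and 2.94 in the kidney), Mfap4 of elastic fibres (45.4 and 44.0, 0 in both kidney libraries, a call that ended within 1000 bp) and Tcf21 (73.5 and 80.5, 29.8 and 45.6). Fgf10, the growth factor of lung branching, had higher ranks in the kidney, at 66.8 and 68.8 against 48.8 and 35.1 in the lung, a gap of 18.0 points that was not called. The median difference of the list was −0.994, and at equal depth 1 promoter was called in each direction.

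Of the lung transcription factors 3 of 10 were called higher in the lung and 0 in the kidney, with a median difference of 18.5 points, which fell to 1.62 when ranked by fold enrichment. Nkx2-1 ranked 85.1 and 89.7 in the lung against 34.3 and 17.0 in the kidney, and Tbx5 ranked 67.5 and 72.1 against 0 in both kidney libraries. Gata6 ranked 93.7 and 96.2 against 61.6 and 63.3. Foxa1 had the next gap, with 80.8 and 86.4 in the lung and 59.6 and 64.1 in the kidney, which falls short of the call. Regions nearest the 10 factors were lung-specific in 102 cases and kidney-specific in 25, and 22 of the former lay nearest Foxa2.

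The immune lists stood apart between the tissues. In the macrophage and leukocyte list 5 of 10 promoters were called higher in the lung and 0 in the kidney, and the median rank was 70.8 in the fed and 39.4 in the fasting lung against 0 in both kidney libraries. Spi1 (PU.1), the ETS factor of myeloid and B cells, ranked 93.4 and 90.04 in the lung against 0 and 5.34 in the kidney. Ptprc (CD45) ranked 83.3 and 68.2 against 12.2 and 0, and Itgax (CD11c) ranked 68.2 and 49.4 against 0 in both kidney libraries, although within 1000 bp it was at 0 in the fasting lung. Mrc1 had higher ranks in the kidney, with 17.6 and 60.8 against 6.24 and 0, and Marco was at 0 throughout. At equal depth 3 of these 10 promoters were called in the lung and 1 in the kidney. In the B and T lymphocyte list 6 of 10 were called higher in the lung, and the medians were 86.1 and 69.2 in the fed and fasting lung against 0 in the kidney. Cd3d of T cells ranked 92.1 and 88.3 against 0, although Cd3d, Cd3e and Cd3g lie close together and can share a region. Cd79a, of B cells, stands in both immune lists and ranked 73.5 and 67.7 in the lung and 0 in the kidney. Both immune lists had lower medians in the fasting than in the fed lung, and the ETS and RUNX shares of all lung regions moved the same way (RUNX 5.95% and 5.20%). The part of lymphocytes and other blood cells in the lung-specific regions was not tested.

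In the proximal tubule list 7 of 15 promoters were called higher in the kidney and 0 in the lung, with a median difference of −34.7 points (lung minus kidney), which was −55.1 within 1000 bp, where 9 of 15 were called. Slc22a6, the basolateral transporter of organic anions, ranked 82.7 and 81.5 in the fed and fasting kidney and 0 in both lung libraries. Miox, the myo-inositol oxygenase, ranked 82.4 and 81.1 against 0, and the lactate carrier Slc5a12 ranked 74.3 and 83.0 against 0. Kap, an androgen-regulated gene of the mouse proximal tubule, ranked 73.3 and 66.1 against 0 and was nearest to 18 kidney-specific regions. Cubn, a receptor for filtered proteins, ranked 93.9 and 94.5 in the kidney against 12.9 and 30.9 in the lung. Its partner Lrp2 (megalin) did not meet the call, with 94.7 and 94.9 in the kidney and 81.8 and 86.5 in the lung, but it was nearest to 40 kidney-specific and 3 lung-specific regions. The whole list was nearest to 189 kidney-specific and 33 lung-specific regions.

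The loop of Henle list had 3 of 10 promoters called higher in the kidney. Besides Umod these were Cldn19 (67.8 and 80.4 in the kidney, 0 in the lung), a claudin of the paracellular magnesium path, and Ptger3 (86.3 and 88.1 against 55.9 and 35.1), a prostaglandin receptor. Slc12a1, the bumetanide-sensitive cotransporter of this segment, ranked 76.6 and 81.8 in the kidney and 83.4 and 89.0 in the lung, but within 1000 bp of a start it was at 0 in both lung libraries and unchanged in the kidney. With that window 4 of 10 promoters of the list were called, and the median difference moved from −6.62 to −26.9. Cldn10 and Egf had higher ranks in the lung than in the kidney, by gaps of 11.1 and 9.51 points.

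The other distal lists differed little at promoters. Calb1, the calbindin of the distal convoluted tubule, was the 1 call of 10 in its list, with 88.9 and 89.7 in the kidney against 23.7 and 6.24 in the lung. Trpm6, the magnesium channel of the same segment, had higher lung ranks, at 85.7 and 90.4 against 60.1 and 72.1. Of the principal cell genes 2 of 10 were called higher in the kidney. They were Aqp2, the water channel regulated by vasopressin (41.8 and 56.5 in the kidney, 0 in the lung), and Kcne1 (54.9 and 63.6 against 0). Of the intercalated cell genes 0 of 10 were called, and the proton pump subunit Atp6v1b1, which was called within 1000 bp, came closest with 91.0 and 93.1 in the kidney against 73.8 and 58.7 in the lung. Slc4a1 was at 0 in all 4 libraries. At equal depth the calls in the principal and intercalated cell lists were 3 and 2. The median differences of the 3 lists were 1.02, −11.5 and −0.485.

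Of the podocyte genes 1 of 10 was called higher in the kidney. Nphs1, which encodes nephrin of the slit diaphragm, ranked 51.6 and 38.0 in the kidney and 0 and 6.24 in the lung. Wt1 followed with 70.8 and 81.9 in the kidney against 28.1 and 54.3 in the lung. Podxl, which vascular endothelium also uses, had higher ranks in the lung, with 94.5 and 94.6 against 78.8 and 78.0. The median difference of the list was 0.289 and turned negative by fold enrichment (−0.796) and at equal depth (−2.40), where 2 of the 10 promoters were called.

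Of the kidney transcription factors 7 of 15 promoters were called higher in the kidney and 0 in the lung, with a median difference of −24.5 points (−7.01 by fold enrichment and −37.5 at equal depth). Hnf4a ranked 87.4 and 94.98 in the fed and fasting kidney and 0 in both lung libraries. Emx2, needed for the ureteric bud, ranked 92.4 and 92.8 against 12.9 and 0. Pax2 ranked 92.5 and 92.9 against 0 and 26.0, and Pax8 ranked 89.9 and 91.1 against 41.5 and 0. The 15 genes were nearest to 252 kidney-specific and 21 lung-specific regions. Pax2 had 42, Pax8 26 and Hnf4a 23 kidney-specific regions. Esrrg, whose promoter was not called (88.8 and 93.7 in the kidney, 63.7 and 83.1 in the lung), had 44 kidney-specific regions and 1 lung-specific region. Gata3 had higher ranks in the lung, by a gap of 9.55 points.

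Genes of the epithelium that both organs share did not separate them. In that list 1 of 15 promoters was called, Krt19, with 87.3 and 85.7 in the lung and 42.9 and 57.2 in the kidney, and the list was nearest to 48 lung-specific and 44 kidney-specific regions. Epcam ranked 93.4 and 94.9 in the lung and 91.5 and 92.8 in the kidney.

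Among the marker lists of other organs, the hepatocyte list was the one at a median of 0 in both lung libraries, against 42.4 and 48.2 in the fed and fasting kidney. In it 3 of 10 promoters were called higher in the kidney (30%, against 4.8% of all genes) and 1 in the lung. The striated muscle and adipocyte lists had 1 call of 10 in each direction. Ttr, the transthyretin gene, ranked 86.2 and 86.8 in the fed and fasting kidney against 0 in the lung and was nearest to 13 kidney-specific regions. Ahsg ranked 60.1 and 58.4 and Fgb 52.0 and 46.8 in the kidney, and both were at 0 in the lung, while F2 was higher in the lung at 75.5 and 68.5 against 32.9 and 17.0. The liver's own gene Cyp7a1, the rate-limiting enzyme of bile acid synthesis, was at 0 in all 4 libraries, and Alb was at 0 in 3 of the 4, with 49.6 in the fasting kidney. The striated muscle list had medians of 52.8 and 30.4 in the lung and 32.0 and 24.3 in the kidney, and the adipocyte list 64.5 and 49.0 in the lung and 47.6 and 52.5 in the kidney. In the striated muscle list Tnni2 was called higher in the lung and Myh6 in the kidney, and Acta1 and Myl1 were at 0. In the adipocyte list Adipoq was called higher in the lung (87.5 and 66.1 against 0) and Lep in the kidney (48.5 and 38.0 against 0), and Retn and Ucp1 were at 0. Within 1000 bp of a start Adipoq and Lep were both at 0 in all 4 libraries, and the calls of Ahsg and Myh6 ended too. The part of attached fat, blood or other tissue in these ranks was not tested.

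**Figure D4:**
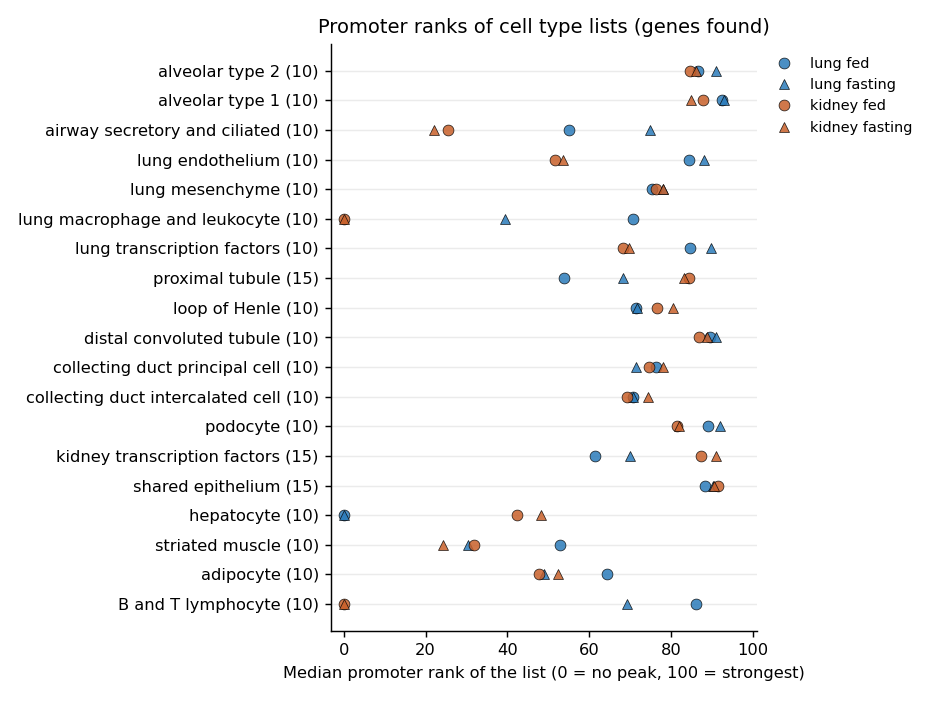
Median promoter rank of each of 19 marker lists (x axis, percentile of −log10 p) in the fed and fasting lung and the fed and fasting kidney, with 1 point per library. The lymphocyte list stands at 86.1 and 69.2 in the lung and 0 in the kidney, and the kidney transcription factors stand at 61.4 and 70.1 in the lung against 87.4 and 91.1 in the kidney.

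Promoter calls in gene families of transport and metabolism leaned to the kidney. Of 385 solute carrier genes 69 were called higher in the kidney (17.9%) and 20 in the lung (5.19%), and 39 were kidney-only. The family as a whole did not lean, with a median difference of 0. Both lung ranks exceeded both kidney ranks at 139 genes, and the reverse held at 139. Slc10a2, the sodium-dependent bile acid carrier, ranked 94.0 and 94.3 in the kidney and 0 in the lung. Slc22a2, the organic cation carrier of the proximal tubule, ranked 93.1 and 92.8 against 0. Slc9a3 (NHE3), the main sodium-proton exchanger of that segment, ranked 93.2 and 91.1 against 0. In the other direction Slc9a9 ranked 83.0 and 80.0 in the lung, and the chloride transporter Slc26a9 ranked 76.0 and 85.9, and both were at 0 in the kidney. The family was nearest to 1604 kidney-specific and 789 lung-specific regions, against 49367 and 40187 for all genes.

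Of 100 cytochrome P450 genes 24 were called higher in the kidney and 4 in the lung, and 25 and 1 at equal depth. The strongest kidney promoters of this kind were those of Cyp2j11 (96.3 and 95.8) and Cyp2j5 (95.1 and 96.5), with 0 in both lung libraries. Cyp4a10, of fatty acid omega-hydroxylation, ranked 85.7 and 86.7 against 0. Cyp4f18, an enzyme of leukotriene breakdown in neutrophils, ranked 87.5 and 78.6 in the lung and 0 in the kidney. Many of these genes lie in tandem clusters of near-identical copies, where reads can be placed on the wrong copy.

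Smaller families gave fewer calls, and those of Aqp12, Cldn9 and Cldn14 ended within 1000 bp of a start. Of 12 aquaporins Aqp5 was called in the lung (8.33%) and Aqp2 and Aqp12 in the kidney (16.7%), and Aqp6 and Mip were at 0 in all 4 libraries. Of 33 claudins Cldn5 and Cldn14 were called in the lung and Cldn9 and Cldn19 in the kidney. That is 6.06% each way, near the 5.46% and 4.8% of all genes, and at equal depth the calls were 1 and 3. Among the claudins 11 were at 0 in all 4 libraries, including Cldn17, Cldn20 and most of the Cldn34 group. Collagens leaned to the lung, with 10 of 45 called there and 3 in the kidney. Col1a2 ranked 71.2 and 72.6 in the lung and 0 in the kidney, and Col6a3 ranked 62.0 and 50.1 against 0. Within 1000 bp 14 and 2 were called. Col6a6 had higher ranks in the kidney, with 88.1 and 73.4 against 18.6 and 42.1. At equal depth the collagen calls were 5 and 4, so that lean did not hold.

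Hox genes, which encode positional identity along the body axis, divided by cluster. Of 39 genes 16 were called higher in the kidney and 0 in the lung, and 20 and 0 at equal depth. In the HoxC cluster 7 of 9 were called and 5 were at 0 in both lung libraries, and in the HoxD cluster 6 of 9 were called and 4 were at 0 in the lung. In HoxA and HoxB the calls were 1 of 11 and 2 of 10. The median rank over the genes of the cluster was 85.8 in the lung and 85.7 in the kidney for HoxA, and 74.2 and 84.9 for HoxB. For HoxC it was 0 in the lung and 74.8 in the kidney, and for HoxD 10.2 and 79.1. Hoxd10 ranked 90.003 and 92.0 in the fed and fasting kidney and 0 in the lung, and Hoxc9 ranked 86.3 and 80.0 against 0. Hoxa5, which the lung needs for its development, ranked 87.3 and 85.2 in the lung and 85.5 and 81.7 in the kidney, and Hoxb13 was at 0 in all 4 libraries. The regions nearest these genes were kidney-specific in 28, 36, 42 and 15 cases for HoxA, HoxB, HoxC and HoxD, and lung-specific in 6, 4, 0 and 1. Neighbouring Hox genes lie within 3000 bp of each other's regions in places, so their ranks are not independent.

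**Figure D5:**
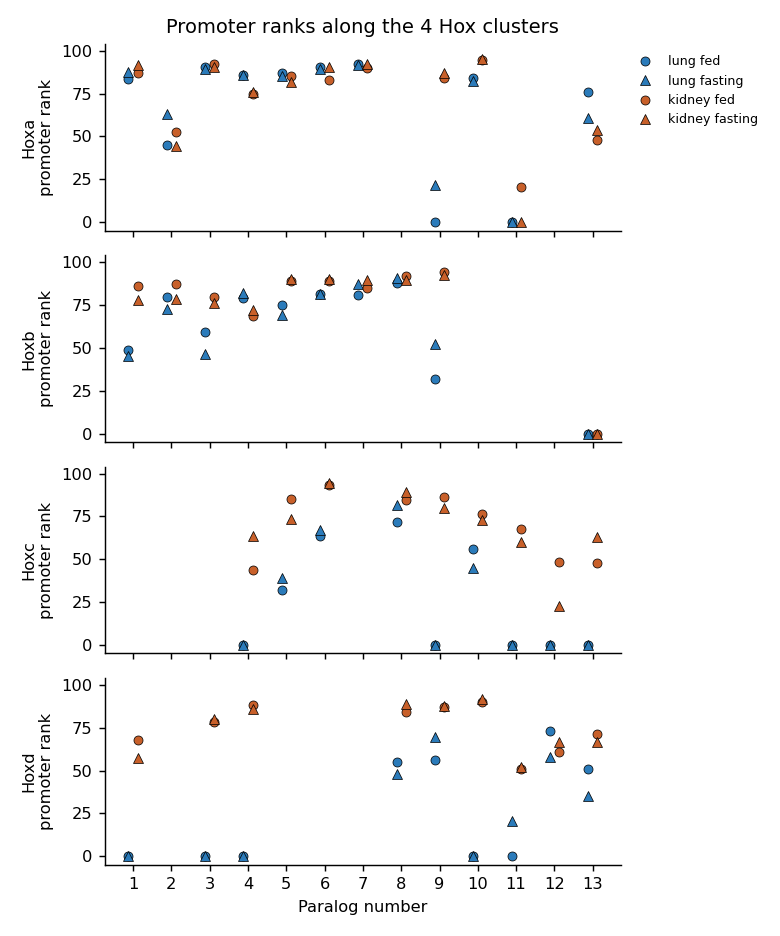
Promoter rank of each Hox gene (y axis, percentile of −log10 p) against its paralog number (x axis), with 1 panel per cluster and 1 point per library. HoxC and HoxD promoters lie at medians of 0 and 10.2 in the lung and 74.8 and 79.1 in the kidney, while those of HoxA lie at 85.8 and 85.7.

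Specific regions were assigned to the nearest protein-coding start. Lung-specific regions lay nearest, and within 100000 bp of, 10230 protein-coding genes (46.6%), and kidney-specific regions nearest 11942 (54.4%). More lung-specific than kidney-specific regions were found at 5575 genes (25.4%) and the opposite at 7918 (36.1%). Foxp1, a forkhead factor of the lung and of lymphocytes, had 82 lung-specific and 19 kidney-specific regions. Bach2, a repressor in lymphocytes, had 53 and 12. Elmo1, of phagocytosis and cell migration, had 53 and 3. Dlc1 had 41 and 1. Arhgap26 (46 and 13), Nav2 (43 and 26), Foxn3 (42 and 13) and Tcf4 (41 and 10) completed the 8 genes with most lung-specific regions. In the kidney Glis3, a zinc finger gene linked to cystic kidneys, had 84 kidney-specific and 4 lung-specific regions, and the phosphodiesterase gene Pde4d had 84 and 35. Bnc2 had 47 and 2, Erc2 52 and 5, and Zbtb20 49 and 9, and Mast4 (62 and 11), Pard3 (53 and 35) and Itpr1 (45 and 19) followed. None of these 16 genes had a promoter called higher in either tissue. The counts were not adjusted for the length of a gene or the distance to its neighbours.

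The strongest lung-only promoters were those of the interferon-induced genes Ifi208 (94.5 and 92.9 in the fed and fasting lung) and Ifi213 (91.4 and 90.4), of Hsh2d, an adaptor of blood cells (91.9 and 91.8), of the galactosidase-like gene Glb1l3 (91.3 and 91.8) and of Rac2, the Rac GTPase of blood cells (91.8 and 90.03). The strongest kidney-only promoters were those of ccdc198 (98.7 and 99.3 in the fed and fasting kidney), Grip2 (99.0 and 98.7), 3110040M04Rik (98.1 and 98.5), Gm47996 (98.0 and 98.8) and the kinesin gene Kif12 (97.8 and 98.9). Each of these 5 ranked above the strongest lung-only promoter in both states.

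Of the 55682 regions in all 4 libraries, 81.8% were called higher in neither tissue by a gap of 20 rank points. The difference in rank between tissues was larger at distal regions than at promoters, as was that between states. The lower rank of one tissue exceeded the higher rank of the other by at least 20 points in favour of the lung at 6541 regions (11.7%) and of the kidney at 3582 (6.43%). At equal depth these counts were 3765 and 3790, so the excess toward the lung did not hold. Of the 26206 promoter regions 8.52% were higher in the lung and 4.17% in the kidney, and of the 29476 distal regions 14.6% and 8.44%. The median absolute difference between tissues was 5.37 points at promoters and 14.4 at distal regions. Between the states of one tissue it was 1.92 and 6.57 for the lung, and 2.30 and 5.52 for the kidney. Across these regions Pearson's r of the ranks was 0.834 between the 2 lung libraries, 0.897 between the 2 kidney libraries and 0.487 to 0.520 between tissues, where regions are not independent replicates. The HNF4 and ETS motifs differed here as in the specific regions, while NKX2 was nearly level (2.19% of the regions higher in the lung and 2.07% of those higher in the kidney). The HNF4 letters were found in 2.09% of the shared regions higher in the kidney and 0.199% of those higher in the lung, and the ETS letters in 2.29% and 7.17%.

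The widest single gaps at shared regions were found near Mfap2, of elastic microfibrils, for the lung (ranks of 91.5 and 91.2 in the lung against 2.64 and 0.683 in the kidney). The next lung gaps lay near C1ql2, Ccdc152, Mcc and Ptp4a2. In the kidney the widest was in an intron of Herc2 (97.3 and 98.0 in the kidney against 6.24 in both lung libraries), followed by regions at or near Vav2, Wfdc2, Tex33 and Lamb3.

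The share of regions at promoters was slightly lower in both lung libraries, but the direction depended on the setting. It was 34.3% and 34.6% in the fed and fasting lung and 35.3% and 34.9% in the kidney, a difference of −0.663 percentage points (exact two-sided permutation p = 0.333, the smallest possible). The difference turned to 1.53 at equal depth, 1.51 among the 50000 strongest regions and 0.305 at q of at most 1e-06. Protein-coding genes with an open promoter made up 73.9% and 73.3% in the lung and 73.8% and 74.0% in the kidney. That difference of −0.301 points was within the spread between states (exact permutation p = 0.667).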

How the data were processed

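ATAC-seq libraries of fed and fasting lung and kidney were analysed from 16 peak lists. The authors aligned reads to GRCm38 with Bowtie2 and called peaks per library with MACS2 (versions not given in the sources used here). The deposited narrowPeak lists give each peak's fold enrichment as a ratio, its −log10 p-value and its −log10 q-value, and were cut by the authors at about the same number of peaks (299281 to 299529 in these 4). Peaks with the same ends were merged into 1 region, and regions with a −log10 q of at least 2 were kept. An overlap of at least 1 bp counted as shared, and the rank was the percentile of −log10 p. Starts came from GENCODE vM21, and motifs were read from the GRCm38 genome. RefSeq promoters of the same build gave the comparison. Background tags per library were recovered from −log10 p and fold enrichment, and were whole within 0.001 for 99.9% to 100% of peaks. Equal-depth lists were thinned to the lowest background and kept at p of at most 1e-05. Depth was not given as read totals, and intervals cover counting error only. Tests were exact permutation tests (scipy 1.17.1, numpy 2.4.6, pandas 2.3.3, Python 3.11.15), and the code was tested on simulated peak lists.

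The tissues, gene lists, motifs and rules were chosen with earlier results of these data known. Named genes were Sftpc and Umod, up to 4 per list with the largest gap between tissues, members at 0 or against their list, the strongest 5 regions and promoters of each kind, and the 8 genes with most specific regions. Other genes named (Sftpb, Foxa2, Cubn, Lrp2, Slc12a1, Pax8, Esrrg, Epcam, Alb, Hoxa5, Tek, Car4, Ednrb, Slc22a2, Slc9a3, Slc9a9, Slc26a9, Cyp4a10, Cyp4f18, Col6a3, Col6a6) were chosen after their values were seen. Motif shares and promoter calls at equal depth, calls in 1 state or within 1000 bp, the pairing by state, and the specific share of the strongest 10% were alternatives chosen after seeing the data. Some genes and 1 of the 13 motifs searched are not reported here.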

Additional observations from a re-analysis of the deposited data

Results flagged for a closer look

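The 2 tissues moved in opposite directions between states in 3 library-wide values. The number of regions changed by −2989 from the fed to the fasting lung and by 3140 from the fed to the fasting kidney. The share of regions at promoters changed by 0.323 percentage points in the lung and by −0.374 in the kidney. Among protein-coding genes, the percentage whose promoter was open changed by −0.529 points in the lung and by 0.210 in the kidney. With 1 library per tissue and state these differences were not tested. The background changed from 8.92 to 7.14 tags in the lung and from 4.67 to 4.64 in the kidney, and its part in these values was not tested.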

How the results depend on the processing

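Each tissue and state has 1 library, so replicate numbers pair nothing, but the lung and kidney pools of a state come from mice of the same group. With the state as a block, the exact sign-flip permutation test over 2 pairs cannot go below 0.5. It gave 0.5 for the promoter share difference of −0.663 (−1.01 fed and −0.315 fasting) and 1 for the open promoter difference of −0.301, and no call changed. The counts of specific and of unequally ranked shared regions depended on the settings, while 80 values of the main results kept their call, 29 moved and 6 turned direction. At q of at most 1e-06 there were 25359 lung-specific regions, 3153 shared regions higher in the lung and 1415 in the kidney, and the promoter share difference was 0.305. With the 50000 strongest regions the counts were 15943 lung-specific, 18614 kidney-specific, 891 lung-only promoters, 16 higher in the lung and 39 in the kidney, with differences of 1.51 (promoter share) and 2.04 (open promoters). Equal depth gave 27397 lung-specific regions, 3765 higher in the lung and a promoter share difference of 1.53. Fed libraries alone gave 90103 lung-specific and 90427 kidney-specific regions, 924 lung-only promoters, 15916 and 9225 unequal shared regions and an open promoter difference of 0.0684. Fasting libraries alone gave 83569, 91964, 15301 and 10154. A window of 1000 bp gave an open promoter difference of 0.376. Gaps of 10 and 40 points gave 11551 and 1770 regions higher in the lung, and 6270 and 1010 in the kidney. Leaving out 1 library gave 48876 to 81747 lung-specific regions, 8434 to 11827 higher in the lung and 4210 to 7794 in the kidney. The tissue difference of the GRHL motif turned to 0.00160 at equal depth. List medians turned to −3.13 (alveolar type 1), 0.274 (mesenchyme) and −0.796 (podocyte) by fold enrichment, and to −0.286 (distal convoluted tubule) and −2.40 (podocyte) at equal depth. Causes were not tested. The sharing difference stayed positive but ranged from 3.81 (without the fed lung) to 15.4 (without the fasting kidney). Medians that kept their direction but moved by over 1.5 times, beside those given above, were at equal depth those of alveolar type 1 (2.02), alveolar type 2 (2.99), airway (4.95), mesenchyme (−3.39), macrophage and leukocyte (21.0), loop of Henle (−22.0), principal cell (−20.2), intercalated cell (−1.52) and shared epithelium (0.127), by fold those of the distal convoluted tubule (7.79), proximal tubule (−20.5) and shared epithelium (3.48), and within 1000 bp those of the intercalated cell (−0.991) and podocyte (2.36) lists. The background was higher in the lung lists, read totals were not used here, 1 pooled library stands for each tissue and state, and the exact tests run on 2 libraries against 2 could not pass.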
